A study of Mus musculus with 24 samples.

Results

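The 28 genes described here make cholesterol, sense it, store it or turn it over, and they were chosen by name from the 22274 genes of the table, in which all 28 were found. The set holds 8 enzymes that lead from acetyl-CoA to squalene and 10 that lead from squalene to cholesterol. A further 5 genes control the pathway or move sterol inside the cell, and the last 5 esterify cholesterol, hydroxylate it or encode the liver X receptors (LXR). They were followed through hypothalamus and hippocampus of mice whose pituitary stalk had been cut electrically.

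The adult brain takes up almost no cholesterol from the blood and makes its own, mostly in glia, with myelin as its main store. When membrane sterol is low, the protein SCAP carries SREBP-2, encoded by Srebf2, out of the endoplasmic reticulum, and the released factor switches on the enzymes of the pathway. INSIG proteins hold that complex back when sterol is plentiful. Neurons clear cholesterol mainly as 24-hydroxycholesterol, made by CYP46A1, while oxysterols activate LXR, which raises sterol export.

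RNA was sequenced from 24 libraries in 8 groups of 3, and the study used male C57BL/6J mice. In PEL, the pituitary stalk electrical lesion, a knife placed by stereotaxic surgery delivered a cathodic current to the stalk. Hypothalamus was taken at day 3 (PEL_3d) and day 10 (PEL_10d) after PEL, with Sham mice as controls (SHAM), and the same 3 groups were repeated with an agent the labels call GH (SHAM-GH, PEL_3d-GH and PEL_10d-GH). Hippocampus was taken from Sham mice (HIP-SHAM) and at day 10 after PEL (HIP-PEL_10d), without GH. The labels place all Sham groups at day 0, so the lesion and the days elapsed cannot be told apart in a comparison with Sham. No source used here gives the dose of GH, the age of the mice or whether tissue was pooled, so the p-values measure the spread between libraries only.

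The tissue labels were checked first, and 3 Sham libraries went against them, 2 of these against their titles too. In the library labelled SHAM replicate 1, 6 hypothalamic peptide and transcription factor genes summed to 7.09 FPKM (fragments per kilobase, scaled to the library's size), against 792 to 1640 in the hypothalamic libraries that were kept. Its 6 hippocampal markers summed to 176 FPKM. Its 6 choroid plexus markers summed to 14795 FPKM, against 18.8 and 21.6 FPKM in the SHAM libraries that were kept. The library labelled HIP-SHAM replicate 1 showed the opposite, with 1037 FPKM of hypothalamic and 16.7 FPKM of hippocampal markers. These 2 were left out of the main comparisons, which use 22 libraries with 15095267 to 17973494 counts each, and the counts of the 28 genes past the threshold in comparisons of their groups are also given with them. The third, HIP-SHAM replicate 3, carries a hypothalamic tissue label but a hippocampal title and hippocampal markers (255 FPKM), and it was kept as hippocampus.

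Stretches upstream of the genes' starts are shown before the values because SREBP-2 and its partner NF-Y bind such regions by their letters. RefSeq promoter windows (GRCm38.p6) were at hand for 24 of the 28 genes and not for Fdft1, Fdps, Sqle and Stard4. In the 250 bases before the start, CCAAT, the letters bound by NF-Y, was searched on both strands and stood in at least 1 window of 19 of the 24 genes, and in 37.5% of all genes with a window. Counted by window, it was in 61.3% of the 31 windows of these genes and in 33.8% of all 32851. The sterol regulatory element, searched as TCACNCCAC on both strands, was before 1 of the 24 genes, Hmgcs1, and before 1.22% of all genes with a window. The E-box CACGTG was found before 5 of the 24 genes (Hsd17b7, Insig1, Dhcr7, Sc5d and Scap) and before 6.86% of all genes with a window. None of these motifs overlaps another by its letters in the windows printed, and a match is a description of the letters only.

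Windows are printed for 3 enzymes whose RNA was lower at day 10 and for Soat1, whose RNA was higher. They run 5′ to 3′ toward the start and stop before any annotated exon, and capitals mark CCAAT (or ATTGG on the reverse strand), TCACNCCAC and CACGTG. Hmgcs1 (chr13:119690101-119690350, plus strand) held CCAAT on the reverse strand at -237, -176 and -45, counted to the start, and the sterol element at -137. Mvd (chr8:122443423-122443672, minus strand) had CCAAT at -60 and -27. Sc5d (chr9:42264301-42264550, minus strand) had an E-box at -98 and CCAAT at -24. Soat1 (chr1:156474332-156474578, minus strand, 247 bases) had a single CCAAT, at -30 from the RefSeq start, which lies 3 bases past the end of the printed stretch.
Hmgcs1: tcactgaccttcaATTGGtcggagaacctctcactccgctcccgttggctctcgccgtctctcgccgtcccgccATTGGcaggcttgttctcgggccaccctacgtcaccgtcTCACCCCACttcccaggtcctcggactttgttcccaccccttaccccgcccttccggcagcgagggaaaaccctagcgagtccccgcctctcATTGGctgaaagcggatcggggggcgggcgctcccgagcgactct
Mvd: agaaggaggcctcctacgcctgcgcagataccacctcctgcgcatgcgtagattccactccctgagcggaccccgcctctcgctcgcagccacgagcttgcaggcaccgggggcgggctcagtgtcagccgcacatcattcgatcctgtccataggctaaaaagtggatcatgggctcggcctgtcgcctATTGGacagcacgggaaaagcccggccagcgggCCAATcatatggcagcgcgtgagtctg
Sc5d: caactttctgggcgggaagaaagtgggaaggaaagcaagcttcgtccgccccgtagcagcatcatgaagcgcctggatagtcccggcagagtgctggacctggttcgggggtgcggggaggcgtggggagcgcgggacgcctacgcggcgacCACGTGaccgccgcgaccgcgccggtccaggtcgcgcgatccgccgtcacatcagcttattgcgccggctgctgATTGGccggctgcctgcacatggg
Soat1: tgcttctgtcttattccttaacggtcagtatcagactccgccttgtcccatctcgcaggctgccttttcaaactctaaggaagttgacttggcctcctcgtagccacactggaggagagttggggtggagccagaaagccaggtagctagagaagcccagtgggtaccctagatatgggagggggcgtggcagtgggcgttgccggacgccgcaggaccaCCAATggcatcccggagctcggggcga

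In Sham hypothalamus all 28 genes were detected, and their levels per length spread widely. Hmgcs1, which makes HMG-CoA, had the highest mean level at 92.9 ± 0.20 FPKM (SD, n = 2). Msmo1, a demethylase of the later steps, followed with 52.1 ± 1.69 FPKM, then Fdps with 46.3 ± 0.77, Srebf2 with 42.5 ± 0.62 and Fdft1 with 42.1 ± 0.67 FPKM. The last 2 of these overlapped in their libraries. At the low end stood Nr1h3 (LXR alpha) with 1.39 ± 0.02 FPKM and Ch25h, the cholesterol 25-hydroxylase, with 0.47 ± 0.08 FPKM. The sum over the 18 enzymes was 502 ± 5.41 FPKM in Sham, 415 ± 24.0 at day 3 and 341 ± 21.0 at day 10 (SD, n = 2, 3 and 3).

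**Figure D1:**
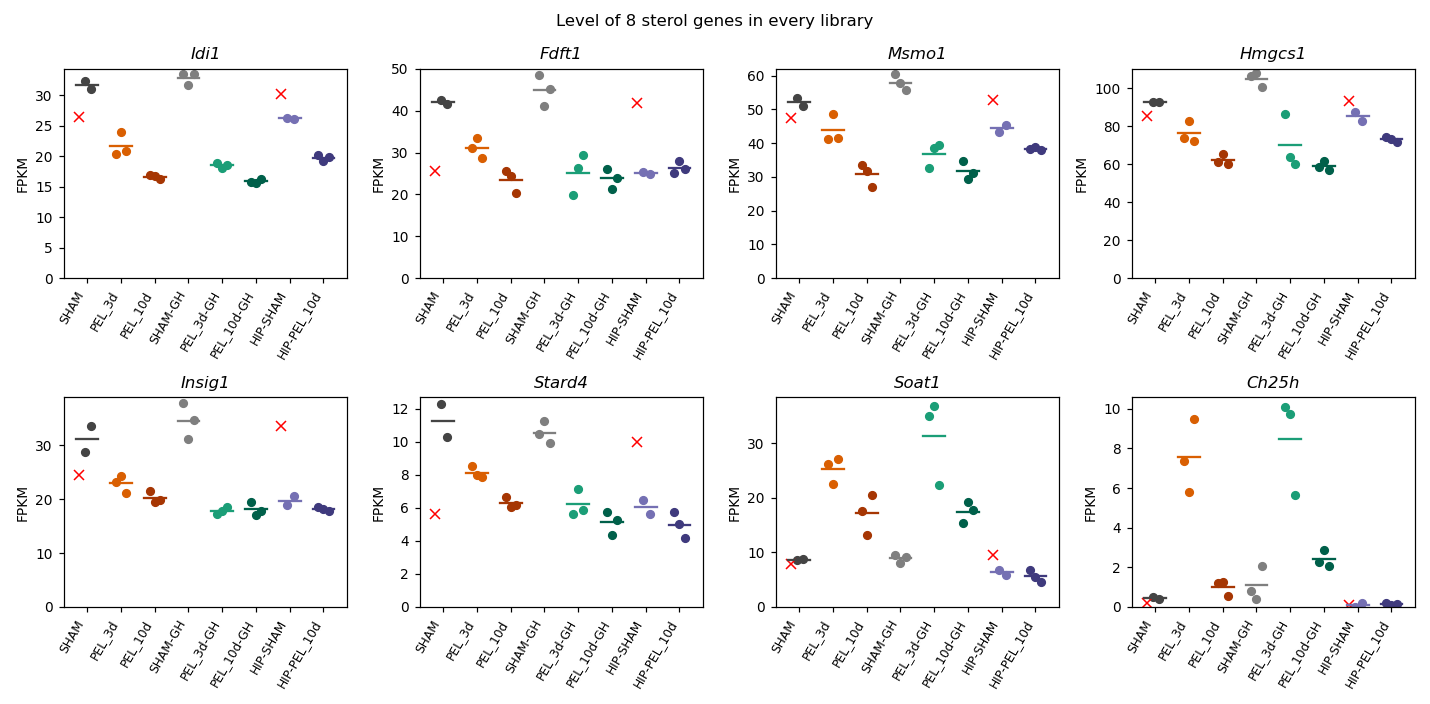
FPKM of 8 sterol genes (y axis, from 0) in each library by group (x axis). Circles are libraries used in the comparisons, bars are group means, and red crosses are the 2 Sham libraries left out of them. Idi1 lies at 31.1 and 32.3 FPKM in Sham and between 16.3 and 16.8 at PEL_10d, while Ch25h lies at 5.79 to 9.46 FPKM at PEL_3d and at 0.56 to 1.25 at PEL_10d.

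The first comparison asks what stalk lesion did to these genes in the hypothalamus. At day 3, 13 of the 28 genes were lower than in Sham and 5 higher (edgeR adjusted p under 0.05), where 40.5% of the 14905 genes tested passed, 18.2% lower and 22.2% higher. At day 10, 14 were lower and 1 higher, where 9.4% of 14801 genes passed, 1.43% lower and 7.97% higher. Of the 18 enzymes, 9 were lower and 1 higher at day 3, and 11 were lower and none higher at day 10. The median log2 fold change of the 28 genes was -0.26 at day 3 and -0.40 at day 10, against -0.01 for all genes at either day. The comparisons of the 2 days share their Sham libraries. In FPKM, 18 genes at day 3 and 20 at day 10 had every lesion library below both Sham libraries, as did 27.1% and 17.3% of all genes tested.

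Among the enzymes up to squalene, Idi1 (GRCm38 chr13:8885501-8892451, plus strand), which isomerizes the isoprene unit, showed the largest drop at day 10. Its level was 32.3 and 31.1 FPKM in Sham, 20.4, 23.9 and 20.9 at day 3 and 16.8, 16.7 and 16.3 at day 10. The 3 groups did not overlap. Its log2 fold change was -0.54 (SE 0.10) at day 3 and -0.93 (SE 0.08) at day 10, with edgeR adjusted p of 0.00225 and 0.000571. Fdft1, the squalene synthase that commits the pathway to sterols, stood at 42.5 and 41.6 FPKM in Sham, 31.2, 33.4 and 28.8 at day 3 and 25.6, 24.5 and 20.4 at day 10. Each day lay below Sham, and day 10 lay below day 3. Its RNA was 1.38-fold lower at day 3 and 1.81-fold lower at day 10 (edgeR adjusted p = 0.000767 and 0.00134). Fdps makes the farnesyl diphosphate that also serves protein prenylation, and its level went from 45.8 and 46.8 FPKM in Sham to 38.1, 38.2 and 35.7 at day 3 and 32.3, 28.8 and 26.0 at day 10. It was 1.62-fold lower at day 10 (edgeR adjusted p = 0.00399).

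Hmgcs1 stood at 92.8 and 93.0 FPKM in Sham, 74.0, 83.1 and 72.3 at day 3 and 61.3, 65.5 and 60.4 at day 10. It was 1.22-fold lower at day 3 and 1.52-fold lower at day 10 (edgeR adjusted p = 0.00919 and 0.000935). Acat2 and Mvd, which act at its start and middle, passed at day 10 with log2 fold changes of -0.38 and -0.61 (edgeR adjusted p = 0.0141 and 0.024), and not at day 3. The 2 kinases did not pass at either day: Mvk had log2 fold changes of 0.07 and -0.33, and Pmvk had -0.26 and -0.25.

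Of the enzymes after squalene, Sqle, the oxygen-using epoxidase, had 37.6 and 37.5 FPKM in Sham, 29.1, 29.2 and 25.3 at day 3 and 23.6, 23.5 and 19.4 at day 10. It was 1.37-fold lower and 1.72-fold lower (edgeR adjusted p = 0.00121 and 0.00183). Msmo1 had 53.3 and 50.9 FPKM in Sham, 41.2, 48.7 and 41.6 at day 3, and 33.4, 31.6 and 27.1 at day 10. The groups did not overlap, and most of its drop came between the 2 days. Its log2 fold change was -0.27 (SE 0.09) at day 3 and -0.81 (SE 0.09) at day 10 (edgeR adjusted p = 0.0318 and 0.00136). Cyp51, the lanosterol demethylase, went from 31.5 and 32.1 FPKM in Sham to 24.9, 29.0 and 25.2 at day 3 and 22.5, 22.6 and 20.3 at day 10, with edgeR adjusted p of 0.0163 and 0.00229. Sc5d, a late desaturase, had 32.3 and 33.3 FPKM in Sham, 30.3, 30.0 and 28.6 at day 3 and 27.2, 26.0 and 27.9 at day 10. All its lesion libraries lay below Sham, by 1.28-fold at day 3 and 1.34-fold at day 10 on the count scale (edgeR adjusted p = 0.00376 and 0.0112). Nsdhl passed at both days with log2 fold changes of -0.31 and -0.56, while Lss, Tm7sf2, Hsd17b7 and Dhcr7 did not pass at either, with values from -0.39 to -0.15 at day 3 and from -0.54 to -0.23 at day 10.

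Ebp, the sterol isomerase, was the 1 enzyme past the threshold in the other direction. It measured 8.89 and 9.35 FPKM in Sham, 13.5, 11.99 and 12.6 at day 3 and 11.1, 8.98 and 8.61 at day 10. At day 3 every lesion library was above Sham, and at day 10 the groups overlapped. Its log2 fold change was 0.46 (SE 0.11) at day 3 (edgeR adjusted p = 0.00696) and 0.05 (SE 0.13) at day 10.

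Among the genes that control the pathway, Srebf2, the pathway's own transcription factor, had 42.0 and 42.9 FPKM in Sham, 36.3, 30.4 and 33.7 at day 3 and 33.6, 33.8 and 26.9 at day 10. It was 1.28-fold lower at day 3 and 1.38-fold lower at day 10 (edgeR adjusted p = 0.00206 and 0.0183). Insig1, itself a target of SREBP-2 and a brake on it, had 28.7 and 33.6 FPKM in Sham, 23.2, 24.4 and 21.2 at day 3 and 21.5, 19.4 and 19.9 at day 10. The lesion libraries lay below both Sham libraries, 1.38-fold and 1.56-fold lower on counts (edgeR adjusted p = 0.0022 and 0.00308). Its relative Insig2 moved little, with log2 fold changes of -0.19 and -0.11 that did not pass. Scap, the escort of SREBP, had log2 fold changes of 0.04 and 0.05. Stard4 carries sterol between membranes, and its level went from 12.3 and 10.3 FPKM in Sham to 8.51, 8.002 and 7.85 at day 3 and 6.68, 6.03 and 6.17 at day 10. It was 1.32-fold lower at day 3 and 1.72-fold lower at day 10 (edgeR adjusted p = 0.00717 and 0.00216).

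Of the 5 genes of storage, hydroxylation and LXR, 4 were higher at day 3 and 1 lower, and 1 was higher at day 10. Soat1 (gene body chr1:156424525-156474331, minus strand), which esterifies cholesterol for storage in droplets, had 8.66 and 8.71 FPKM in Sham, 26.2, 22.4 and 27.1 at day 3 and 17.7, 13.2 and 20.4 at day 10. All lesion libraries were above Sham, and day 3 was above day 10. Its log2 fold change on counts was 1.07 (SE 0.07) at day 3 and 0.74 (SE 0.11) at day 10 (edgeR adjusted p = 1.98e-06 and 0.00535), a 2.10-fold and 1.67-fold rise. In FPKM its means were 291% and 197% of Sham, so the 2 deposited scales differ in size for this gene.

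Ch25h (chr19:34473778-34475164, minus strand) makes 25-hydroxycholesterol and is known as an interferon-responsive gene of macrophages. It had 11 and 9 counts in Sham, 167, 126 and 211 at day 3 and 26, 29 and 12 at day 10. At day 3 it was 15.7-fold higher than in Sham (log2 fold change 3.97, SE 0.32, edgeR adjusted p = 6.17e-06), and at day 10 the difference of 1.06 (SE 0.48) did not pass. Nr1h3 had 1.40 and 1.37 FPKM in Sham, 3.51, 2.41 and 2.59 at day 3 and 2.93, 1.69 and 1.49 at day 10, with log2 fold changes of 1.05 (SE 0.25, edgeR adjusted p = 0.00759) and 0.54 (SE 0.33), of which only the first passed. Nr1h2 (LXR beta) passed at day 3 with 0.33 and not at day 10 with 0.39. Cyp46a1, the neuronal 24-hydroxylase, had 30.6 and 31.9 FPKM in Sham, 24.3, 25.3 and 20.9 at day 3 and 27.5, 30.0 and 24.3 at day 10. It was 1.33-fold lower at day 3 (edgeR adjusted p = 0.00495), and its log2 fold change of -0.20 (SE 0.09) at day 10 did not pass.

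These counts rest on 2 Sham libraries. With the library labelled SHAM replicate 1 included, 3 of the 28 genes passed at day 3 (Soat1, Ch25h and Cyp46a1) and 3 at day 10 (Hmgcs1, Idi1 and Msmo1), where 11.4% and 1.84% of all genes passed. At an unadjusted p under 0.05 there were 10 and 17 of the 28, against 26.6% and 10.9% of all genes. The log2 fold changes of the 18 and 15 genes called without that library kept their sign with it, but at day 3 those of 7 genes (Fdps, Fdft1, Sqle, Cyp51, Nsdhl, Stard4 and Nr1h2) became smaller by over 1.5 times, as with Fdft1 at -0.27, Stard4 at -0.17 and Cyp51 at -0.16. At day 10 this held for 1 gene, Acat2, at -0.13. At day 3, 8 of the 28 passed without SHAM replicate 2 and 10 without SHAM replicate 3, where 22.4% and 25.7% of all genes passed. At day 10, 8 and 7 passed, where 1.36% and 2.02% of all genes did. The enzyme sum of the library labelled SHAM replicate 1 was 395 FPKM, beside 379 and 386 in HIP-SHAM replicates 2 and 3, and the library labelled HIP-SHAM replicate 1 had 502 FPKM. Counting SHAM replicate 1 as Sham, 7 genes at day 3 and 13 at day 10 had every lesion library below all Sham libraries, against 10.1% and 5.32% of all genes. Soat1 and Ch25h at day 3 and Hmgcs1, Idi1 and Msmo1 at day 10 passed under every setting tried, the inclusion of that library among them.

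Markers of other cell types moved in the same libraries. In bulk tissue, fewer cells of a type and less RNA per cell cannot be told apart. All 6 markers of microglia and macrophages were higher at day 3 (median log2 fold change 2.08) and 4 of 6 at day 10 (median 1.18). Their summed level was 70.25 to 78.5 FPKM in Sham, 367 to 435 at day 3 and 160 to 196 at day 10. Of the 6 neuronal markers, 5 were lower at day 3 (median -0.33) and 1 at day 10 (median -0.13), with sums of 1050 to 1094 FPKM in Sham, 843 to 941 at day 3 and 916 to 1019 at day 10. Microglial levels thus peaked at day 3, with no overlap between the groups. Neuronal sums lay below Sham at both days, and those of the 2 days overlapped. The 8 markers of oligodendrocytes and myelin, the cells that use most brain cholesterol, held no gene that was lower. Of them, 1 was higher at day 3 and 4 at day 10 (median 0.49), with sums of 2088 to 2894, 2364 to 2472 and 3394 to 3579 FPKM. Astrocyte markers summed to 441 to 446, 501 to 539 and 545 to 561 FPKM, with 3 higher and 2 lower of 6 at day 3 and 2 higher at day 10. Endothelial markers were higher for 4 of 5 at day 3 and 2 of 5 at day 10, with sums of 45.5 to 46.0, 77.2 to 94.7 and 56.7 to 64.3 FPKM. Of the 6 hypothalamic markers, 3 were lower at day 3 and 2 at day 10. Of 5 choroid plexus markers tested, 2 were lower at day 3 (median -1.04) and none passed at day 10 (median -0.21), with sums of 18.8 to 21.6 FPKM in Sham, 7.30 to 13.2 at day 3 and 16.6 to 21.4 at day 10. No marker of the microglial, neuronal, myelin, astrocyte and endothelial lists was at 0 in any library. When the library labelled SHAM replicate 1 was included, 6 microglial markers were higher at day 3 and 4 at day 10, and no myelin marker passed at either day by edgeR, with medians of -0.46 and -0.04. There 1 neuronal marker was lower at day 3 (median -0.51, 5 unadjusted) and none passed at day 10 by edgeR (median -0.34, 1 unadjusted). Astrocyte markers had 3 higher at day 3 and 1 at day 10, endothelial markers 3 higher at day 3 and none at day 10 by edgeR (2 unadjusted), and no hypothalamic or choroid plexus marker passed at either day by edgeR (0 and 4 unadjusted at each day). Their part in the sterol gene results was not tested.

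**Figure D2:**
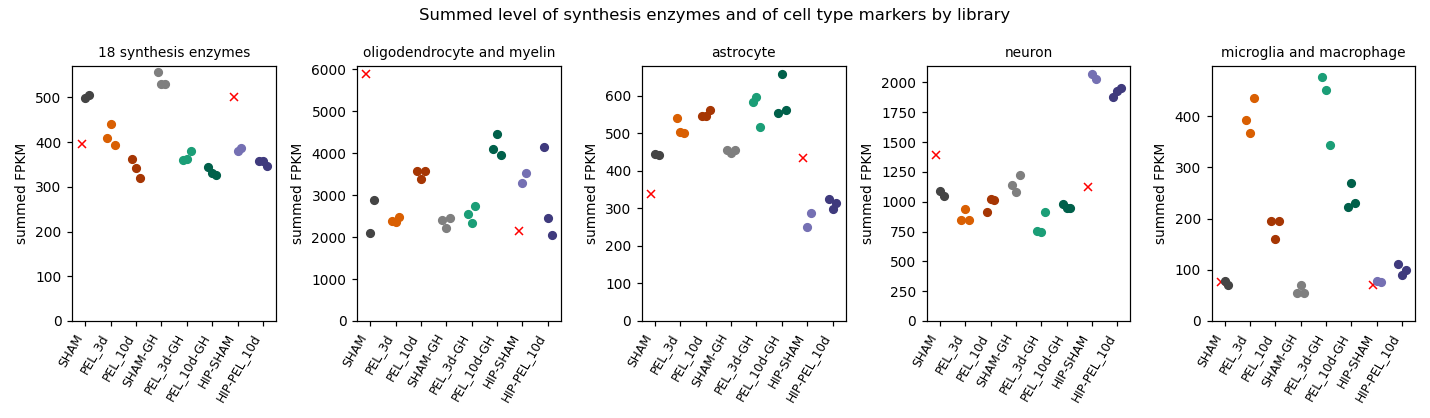
Summed FPKM (y axis, from 0) of the 18 synthesis enzymes and of 4 marker lists in each library, by group (x axis). Circles are libraries used in the comparisons and red crosses the 2 left out of them. The enzyme sum lies at 498 and 506 FPKM in SHAM and at 319 to 361 in PEL_10d, while the myelin sum at PEL_10d lies above both SHAM libraries.

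Lists around the pathway were counted in the same fits, where 40.5% of all genes passed at day 3 and 9.4% at day 10. Of 12 genes of fatty acid synthesis, the branch led by SREBP-1, 4 were higher and 3 lower at day 3 (median log2 fold change -0.10), and 1 was higher at day 10 (median -0.06). By smallest p at day 3 these were Me1 (0.60, SE 0.07), Elovl6 (-0.48, SE 0.08) and Scd1 (-0.41, SE 0.07), and at day 10 it was Srebf1 (0.51, SE 0.09). Of 12 genes of sterol transport and efflux, 7 were higher and 1 lower at day 3 (median 0.42) and 7 higher at day 10 (median 0.37). Abca1, an LXR target that exports cholesterol, rose by 2.10 (SE 0.14) at day 3 and by 1.70 (SE 0.13) at day 10 on the log2 scale (edgeR adjusted p = 1.25e-06 and 0.000271). Npc2, which passes sterol out of the lysosome, rose by 1.15 and 0.70, and Abcg1, another exporter, passed at day 10 with 0.46 (SE 0.07). Of 9 genes on the mevalonate branches that do not lead to sterol, 1 was lower at day 3, namely Ggps1 with -0.36 (SE 0.10), and at day 10 none passed by edgeR (0 at an unadjusted p under 0.05). Including the library labelled SHAM replicate 1, 1 fatty acid gene was higher and 1 lower at day 3 and none passed at day 10 by edgeR (4 unadjusted), while 4 transport genes were higher at day 3 and 1 at day 10. No gene of the branches that do not lead to sterol passed there by edgeR at day 3 (1 unadjusted) or at day 10 (0 unadjusted). In mice given GH, where 52.1% of all genes passed at day 3 and 30.9% at day 10, 3 fatty acid genes were higher and 7 lower at day 3, and 2 higher and 6 lower at day 10. There 7 transport genes were higher and 2 lower at day 3, and 7 higher at day 10. Of the 9 genes of the branches that do not lead to sterol, 1 at day 3 and 3 at day 10 had an unadjusted edgeR p under 0.05. Over all genes this held for 8484 of 14743 and 6154 of 14686.

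Day 10 was then compared with day 3 directly, with 3 libraries a group and no Sham in the fit. None of the 28 genes was higher and 12 were lower at day 10 (edgeR adjusted p under 0.05), where 18.5% of all 14807 genes passed, 6.33% higher and 12.2% lower. Of the enzymes, 9 were lower. Ch25h fell by 2.90 on the log2 scale (SE 0.30, edgeR adjusted p = 0.000212) and Soat1 fell by 0.32 (SE 0.09, edgeR adjusted p = 0.0404). Msmo1 fell by 0.53 (SE 0.09, edgeR adjusted p = 0.00377), Stard4 by 0.38 (SE 0.07, edgeR adjusted p = 0.00729) and Hmgcs1 by 0.30 (SE 0.06, edgeR adjusted p = 0.0115). The log2 fold changes of Idi1, Fdps, Fdft1, Mvk, Ebp, Sqle and Cyp51 lay between -0.40 and -0.27. Leaving out PEL_3d replicate 1, 2 or 3 or PEL_10d replicate 2 left 5, 6, 6 and 6 of the 28 genes past the threshold, where 10.9%, 16.6%, 8.91% and 9.9% of all genes passed. Ch25h, Msmo1, Stard4 and Hmgcs1 passed in every setting tried. In the same comparison all 6 microglial markers were lower at day 10 (median -1.04) and 3 of 5 endothelial markers were lower (median -0.64). Of the other lists, 7 of 8 myelin markers were higher (median 0.48), as were 2 of 6 neuronal markers and 2 of 5 choroid plexus markers tested, and astrocyte markers split into 2 higher and 1 lower of 6. Their part in these falls was not tested.

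**Figure D3:**
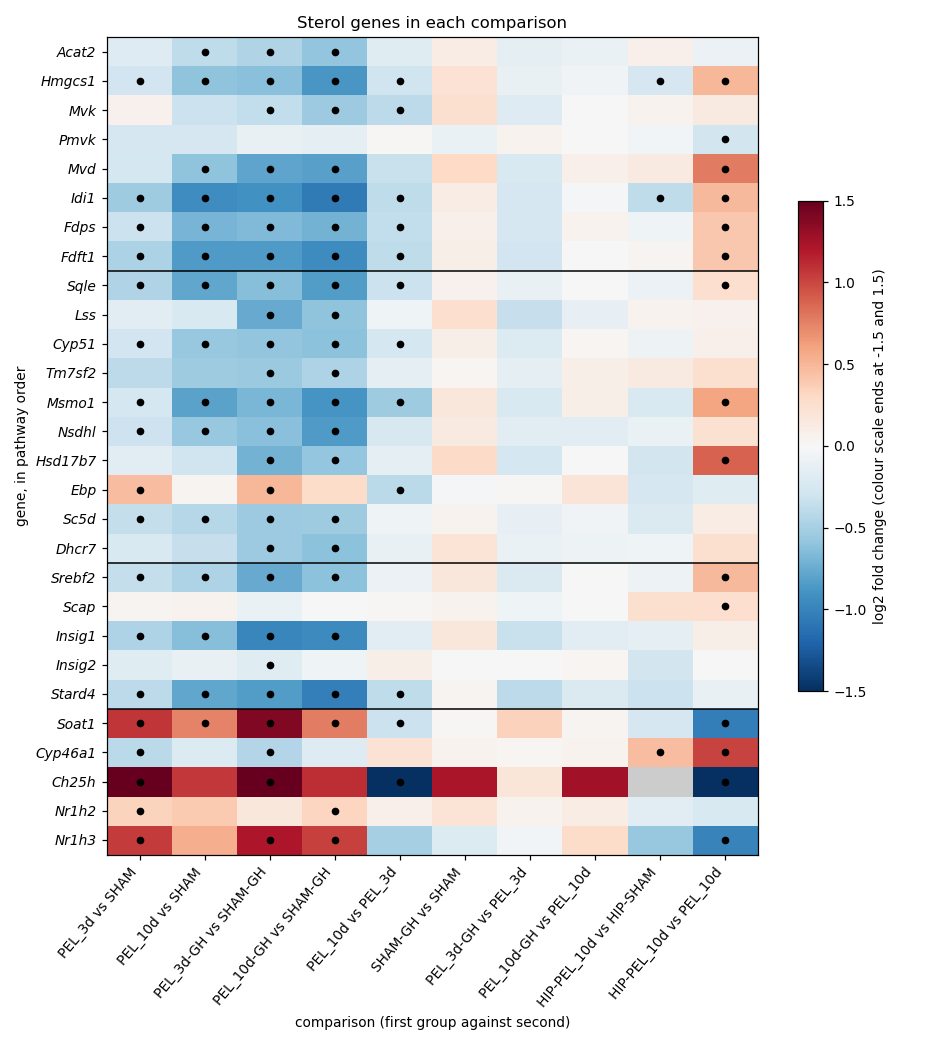
Log2 fold change (colour, scale ending at -1.5 and 1.5) of the 28 genes (rows, in pathway order, lines between the 4 roles) in 10 comparisons (columns). Black dots mark an edgeR adjusted p under 0.05 and grey a gene not tested. The enzyme rows are blue in the 4 hypothalamic lesion columns except Ebp and, at PEL_3d, Mvk, and Soat1, Ch25h, Nr1h2 and Nr1h3 are red there.

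The lesion was also compared with Sham among mice given GH, in libraries that share none with the comparisons above and with 3 Sham libraries. At day 3, 21 of the 28 genes were lower and 4 higher (edgeR adjusted p under 0.05), where 52.1% of 14743 genes passed, 25.2% lower and 26.9% higher. At day 10, 19 were lower and 3 higher, where 30.9% of 14686 genes passed, 13.3% lower and 17.7% higher. Of the 18 enzymes, 16 were lower at each day, and Pmvk and Ebp were the exceptions. The median log2 fold change was -0.58 at day 3 and -0.59 at day 10, and within 0.01 of 0 for all genes. The comparisons of the 2 days again share their Sham libraries.

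Idi1 had 33.4, 31.6 and 33.5 FPKM in SHAM-GH, 18.9, 18.1 and 18.5 in PEL_3d-GH and 15.8, 15.7 and 16.3 in PEL_10d-GH. The groups did not overlap, and its log2 fold change was -0.91 (SE 0.07) and -1.06 (SE 0.06), with edgeR adjusted p of 3.42e-06 and 2.31e-06. Insig1 had 37.8, 31.2 and 34.7 FPKM in SHAM-GH, 17.2, 17.8 and 18.5 at day 3 and 19.5, 17.0 and 17.8 at day 10. It was 1.97-fold lower at day 3 and 1.94-fold lower at day 10 (edgeR adjusted p = 9.77e-06 and 2.93e-05). Stard4 had 10.5, 11.2 and 9.93 FPKM in SHAM-GH, 5.60, 7.14 and 5.89 at day 3 and 5.78, 4.37 and 5.27 at day 10, a 1.79-fold and 2.04-fold drop (edgeR adjusted p = 3.05e-05 and 4.92e-05). Both lesion groups of these 3 genes lay wholly below SHAM-GH.

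Msmo1 had 60.4, 57.7 and 55.6 FPKM in SHAM-GH, 32.7, 38.4 and 39.4 at day 3 and 34.7, 29.4 and 31.0 at day 10. Its log2 fold changes were -0.68 (SE 0.08) and -0.89 (SE 0.06), with edgeR adjusted p of 7.18e-05 and 1.13e-05. Sqle had 40.2, 37.5 and 38.5 FPKM in SHAM-GH, 23.0, 25.6 and 27.3 at day 3 and 23.7, 21.3 and 21.3 at day 10, and was 1.56-fold and 1.78-fold lower (edgeR adjusted p = 7.67e-05 and 1.17e-05). Srebf2 had 52.8, 49.7 and 44.6 FPKM in SHAM-GH, 25.3, 28.1 and 30.8 at day 3 and 35.0, 29.5 and 30.2 at day 10. It was 1.69-fold and 1.53-fold lower (edgeR adjusted p = 4.16e-05 and 0.000253). In these 3 genes all lesion libraries lay below SHAM-GH. Lss, the cyclase that forms lanosterol and that had not passed without GH, had log2 fold changes of -0.76 (SE 0.09) and -0.60 (SE 0.08), with edgeR adjusted p of 9.74e-05 and 0.000617. Hmgcs1 was less even at day 3, where its libraries read 86.8, 63.8 and 59.9 FPKM against 107, 108 and 101 in SHAM-GH, and fell by 0.87 (SE 0.05) at day 10 on the log2 scale (edgeR adjusted p = 4.02e-06).

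Soat1 had 9.56, 8.01 and 9.15 FPKM in SHAM-GH, 35.0, 36.7 and 22.4 at day 3 and 15.3, 19.2 and 17.7 at day 10. It was 2.63-fold higher at day 3 and 1.71-fold higher at day 10 (edgeR adjusted p = 2.17e-05 and 6.14e-05). Ch25h had 18, 10 and 46 counts in SHAM-GH, 225, 213 and 140 at day 3 and 53, 63 and 50 at day 10. It was 7.60-fold higher at day 3 (edgeR adjusted p = 0.000301), and its log2 fold change of 1.11 (SE 0.45) at day 10 did not pass. SHAM-GH replicate 3, with the 46 counts, lowers both values and decides the call at day 10. Without it the log2 fold change of Ch25h was 3.77 (SE 0.39, edgeR adjusted p = 0.000249) at day 3, which passed either way. At day 10 it was 1.94 (SE 0.36, edgeR adjusted p = 0.00741), which then passed. The day 3 libraries of both genes lay above SHAM-GH. Ebp passed at day 3 with 0.50 (SE 0.10) and not at day 10 with 0.28 (SE 0.10). Cyp46a1 passed at day 3 with -0.44 (SE 0.11) and not at day 10 with -0.19 (SE 0.08). Scap did not pass at either day, with -0.09 and 0.00.

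All settings tried left 23 of the 25 calls at day 3 and 19 of the 22 at day 10, the losses being Mvk and Insig2 at day 3 and Tm7sf2, Nr1h2 and Nr1h3 at day 10. Here too all 6 microglial markers were higher at both days (sums of 54.3 to 69.8 FPKM in SHAM-GH, 343 to 476 at day 3 and 222 to 269 at day 10) and all 6 neuronal markers lower (1084 to 1223, 743 to 911 and 944 to 980 FPKM). Of the 8 myelin markers, 3 were higher at day 3 and all 8 at day 10 (2213 to 2455, 2344 to 2753 and 3957 to 4450 FPKM). Endothelial markers were higher for 4 of 5 and 3 of 5. Of the 6 astrocyte markers, 3 were higher and 1 lower at day 3 and 2 higher at day 10, with sums of 448 to 454, 517 to 597 and 554 to 657 FPKM that left SHAM-GH below both lesion groups. At day 3, 2 of 5 choroid plexus markers tested were lower (median -0.76). At day 10 all 5 red blood cell genes were higher too (median 2.49), as were 2 of 3 anterior pituitary genes tested, whose list summed to 9.65 to 15.5 FPKM in SHAM-GH and 8.75 to 74.05 FPKM in PEL_10d-GH. The part of these in the sterol gene results was not tested.

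**Figure D4:**
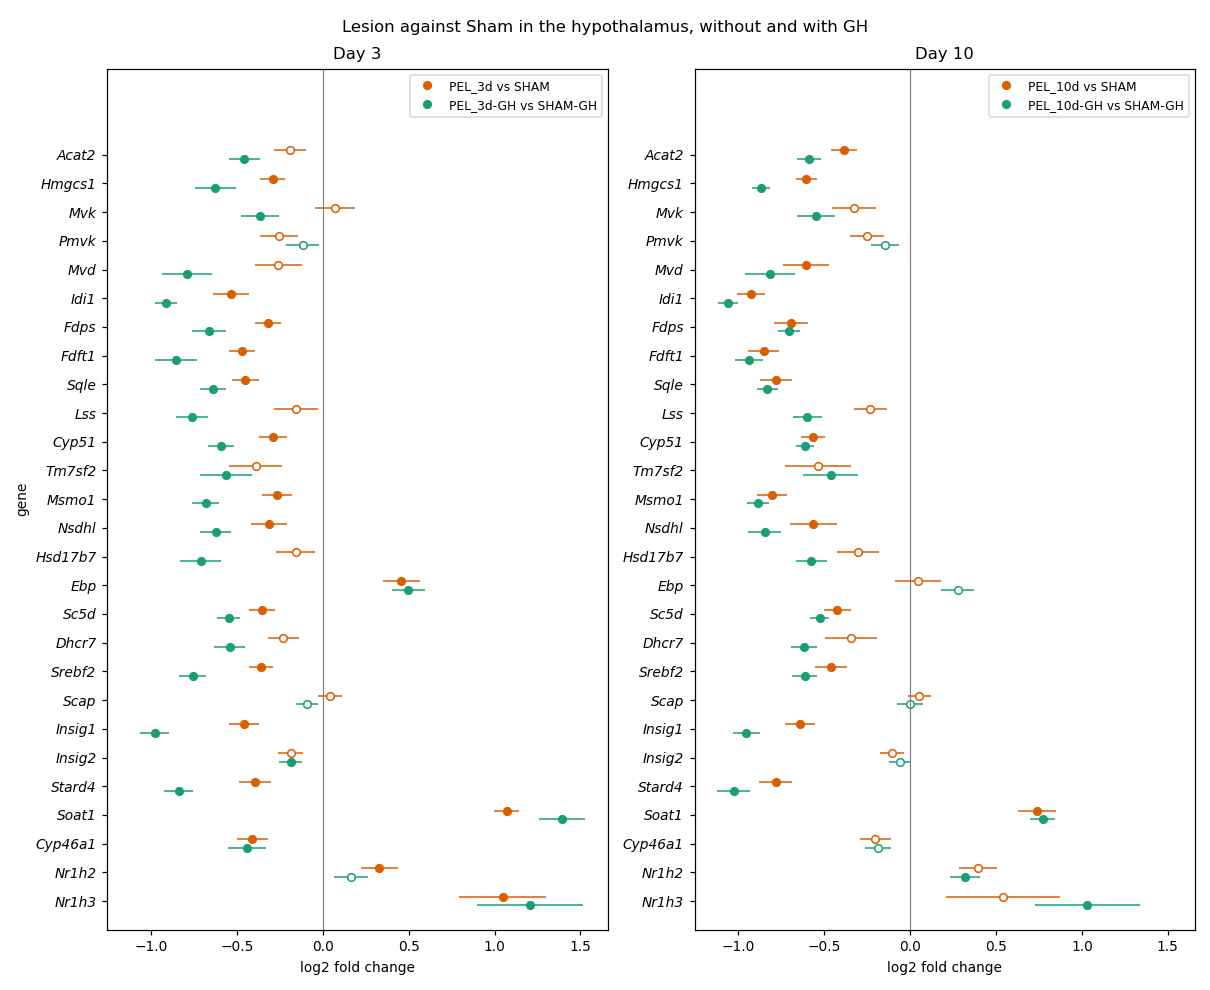
Log2 fold change of lesion against Sham (x axis) for 27 genes (rows, Ch25h left out for its range) at day 3 and day 10, without GH (orange) and with GH (green). Bars are standard errors, and filled circles mark an edgeR adjusted p under 0.05. At day 3 the green points of most enzymes lie to the left of the orange ones, and at day 10 the pairs lie closer.

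The GH groups were next set against the groups without GH. In Sham hypothalamus none of the 28 genes passed for GH by edgeR (7 at an unadjusted p under 0.05, where 1.09% of 14539 genes passed after adjustment and 15% before). The enzyme sum was 529 to 558 FPKM in SHAM-GH and 498 and 506 in Sham. Hmgcs1 had the smallest p, with 107, 108 and 101 FPKM in SHAM-GH against 92.8 and 93.0 in Sham (log2 fold change 0.22, SE 0.05, edgeR adjusted p = 0.0586). It was the 1 gene of the 28 to pass by DESeq2 and without a filter on low counts, where 1.83% and 2.03% of all genes passed. Srebf2 (0.17, SE 0.05) and Hsd17b7 (0.28, SE 0.10) followed. With the library labelled SHAM replicate 1 included none passed by edgeR (4 unadjusted, against 5.46% of all genes), nor did any gene of the table. In FPKM, 8 of the 28 then lay wholly above Sham and 0 below, against 8.28% and 8.09% of all genes. In mice with PEL at day 3, none of the 28 passed for GH by edgeR (8 unadjusted) or by DESeq2, where 0.399% of all genes passed. By edgeR 0.027% of 14798 genes passed after adjustment and 6.8% before. In FPKM, 10 of the 28 lay wholly below PEL_3d and 0 above, against 7.59% and 4.54% of all genes. The enzyme sum was 360 to 379 FPKM in PEL_3d-GH and 395 to 441 in PEL_3d. Stard4, Insig1 and Lss had the smallest p, with log2 fold changes of -0.40 (SE 0.09), -0.34 (SE 0.08) and -0.34 (SE 0.12). Without PEL_3d-GH replicate 3, 1 gene passed, Soat1 with 0.50 (SE 0.06, edgeR adjusted p = 0.0233), where 0.376% of all genes passed. At day 10 none passed by edgeR (1 unadjusted) or by DESeq2, where 0.264% of all genes passed. Nor did any of 14763 genes by edgeR, where 6.14% had an unadjusted p under 0.05. The 1 gene of the 28 was Ch25h (1.26, SE 0.32, 53, 63 and 50 counts against 26, 29 and 12), followed by Stard4 (-0.22, SE 0.11) and Insig1 (-0.15, SE 0.08). At day 10, 5 of 8 myelin, 3 of 6 microglial and 3 of 6 hypothalamic markers had an unadjusted edgeR p under 0.05. Myelin sums were 3957 to 4450 FPKM with GH and 3394 to 3579 without, and microglial sums 222 to 269 and 160 to 196. At day 3, 3 of 6 astrocyte and 0 microglial markers had such a p, and in Sham 2 of 6 microglial ones. Their part in these values was not tested.

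Whether the lesion effect itself differed with GH was tested as an interaction. At day 3, 24 of the 28 interaction terms were below 0 and their median was -0.31, but none passed (14 at an unadjusted p under 0.05, where 10.5% of 15164 genes had one and 0.0462% passed after adjustment). By DESeq2, 1 of the 28 passed, Insig1, where 0.936% of all genes did. The smallest p belonged to Insig1 (-0.52, SE 0.13, edgeR adjusted p = 0.177), Lss (-0.61, SE 0.16) and Stard4 (-0.45, SE 0.13). One library decides this count. Without PEL_3d-GH replicate 3, whose Soat1 level was 22.4 FPKM against 35.0 and 36.7 in the other libraries of its group, 8 genes passed: Mvd, Fdps, Fdft1, Msmo1, Hsd17b7, Srebf2 and Insig1 with terms from -0.70 to -0.46 and Soat1 with 0.47. In that fit 4.18% of all 15138 genes passed. That library also had the lowest microglial sum of its group, 343 FPKM against 476 and 452, and whether this bears on the count was not tested. At day 10, 20 terms were below 0, their median was -0.09 and none passed by edgeR (4 unadjusted) or by DESeq2, where 0.635% of all genes did, nor did any of 15116 genes by edgeR, where 9.04% had an unadjusted p under 0.05. Hmgcs1 (-0.27, SE 0.07), Lss (-0.37, SE 0.12) and Insig1 (-0.32, SE 0.12) had the smallest p. With the library labelled SHAM replicate 1 included, none passed by edgeR at day 3 (14 unadjusted, against 8.42% of all genes) or at day 10 (3 unadjusted, against 7.47%).

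In the hippocampus, the question was whether tissue away from the lesion changed at day 10. Of 27 genes tested, 1 was higher and 2 were lower than in HIP-SHAM (edgeR adjusted p under 0.05), where 6.15% of 14191 genes passed, 2.09% higher and 4.07% lower. Ch25h, with 0 to 5 counts in hippocampal libraries, was not tested. Cyp46a1 had 33.2 and 33.4 FPKM in HIP-SHAM and 43.3, 48.7 and 47.3 in HIP-PEL_10d, without overlap. Its log2 fold change was 0.46 (SE 0.07, edgeR adjusted p = 0.0131). Idi1 had 26.3 and 26.1 FPKM in HIP-SHAM and 20.1, 19.2 and 19.9 in HIP-PEL_10d, and was 1.31-fold lower (edgeR adjusted p = 0.0187). Hmgcs1 had 87.7 and 82.8 FPKM against 74.6, 73.2 and 72.0, and was 1.19-fold lower (edgeR adjusted p = 0.037). For the other 24 genes tested, log2 fold changes ran from -0.56 for Nr1h3 to 0.24 for Scap.

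With the library labelled HIP-SHAM replicate 1 included, none of the 28 genes passed by edgeR (8 unadjusted, against 10.2% of all genes), nor did any gene of the whole table. The log2 fold changes were then 0.55 for Cyp46a1, -0.39 for Idi1 and -0.21 for Hmgcs1. None passed by edgeR without HIP-SHAM replicate 2 (7 unadjusted) or without replicate 3 (8 unadjusted), where 0.732% and 0.491% of all genes did, and 12.8% and 16.3% before adjustment. Without HIP-PEL_10d replicate 2, 1 passed, and without HIP-PEL_10d replicate 1, 5 passed, where 2.62% and 12.4% of all genes did. Choroid plexus markers set these groups apart: 5 of 6 were lower in HIP-PEL_10d (median log2 fold change -3.59), with sums of 4318 and 5410 FPKM in HIP-SHAM replicates 2 and 3 and 133, 38.5 and 795 FPKM in HIP-PEL_10d. Of 5 red blood cell genes, 2 were higher there. Of 6 hippocampal markers, Fibcd1 and C1ql2 were higher (0.58 and 0.70 on the log2 scale) and Neurod6 and Spink8 lower (-0.51 and -0.63), all by edgeR, while the list's sums overlapped at 255 to 282 FPKM in HIP-SHAM and 228 to 267 in HIP-PEL_10d. Microglial markers summed to 75.8 to 78.2 FPKM in HIP-SHAM and 89.0 to 111 in HIP-PEL_10d, and none of 6 passed by edgeR (4 unadjusted). Astrocyte sums were 250.2 to 288 and 297 to 325 FPKM, with 1 of 6 higher, and neuronal sums 2025 to 2068 and 1879 to 1952 FPKM, with 1 of 6 lower. The sums of these 3 lists did not overlap between the groups. Nor did those of endothelial markers, at 35.67 to 39.34 FPKM in HIP-SHAM and 40.7 to 45.55 in HIP-PEL_10d. Red blood cell sums were 21.58 to 37.12 and 49.4 to 144 FPKM, also without overlap. Myelin sums were 3279 and 3527 FPKM in HIP-SHAM replicates 2 and 3. In HIP-PEL_10d replicates 1, 2 and 3 they were 4154, 2458 and 2042 FPKM. When the library labelled HIP-SHAM replicate 1 was included, no choroid plexus marker passed by edgeR (2 unadjusted, median -3.05). The part of these in the 3 calls was not tested.

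The lesion effect at day 10 was then compared between the tissues. The interaction passed for 14 of the 28 genes, 12 above 0 and 2 below (edgeR adjusted p under 0.05), where 10.7% of 15053 genes passed, 4.22% above and 6.52% below. It comes from 1 fit over both tissues with its own scaling, so it can differ slightly from the gap between the effects fitted in each tissue. For Fdft1 the separately fitted lesion effect was -0.85 in hypothalamus and 0.04 in hippocampus, and the interaction was 0.92 (SE 0.12, edgeR adjusted p = 0.00113). Sqle gave 0.73 (SE 0.12, edgeR adjusted p = 0.00411), and Idi1, lower in both tissues, gave 0.57 (SE 0.11, edgeR adjusted p = 0.00783). Cyp46a1 gave 0.69 (SE 0.12, edgeR adjusted p = 0.00556), being -0.20 in hypothalamus and 0.46 in hippocampus. Soat1 gave -0.96 (SE 0.16, edgeR adjusted p = 0.00412), with a rise of 0.74 in hypothalamus and a difference of -0.25 in hippocampus that did not pass. With all labelled libraries Soat1 and Cyp46a1 alone passed, where 0.63% of all genes did. The 14 terms kept their sign there, and 6 became smaller by over 1.5 times, namely Acat2 (0.00), Fdps (0.40), Fdft1 (0.52), Sqle (0.39), Cyp51 (0.20) and Insig1 (0.21), while Mvd gave 0.70, Msmo1 0.55, Idi1 0.50 and Hmgcs1 0.38. Without HIP-SHAM replicate 2 or replicate 3, 9 of the 28 genes did in each case, where 4.47% and 3.91% of all genes did. In the interaction fit 4 of 6 microglial markers (median -0.83) and 4 of 6 choroid plexus markers (median -3.71) were below 0, astrocyte markers had 1 above and 2 below of 6, hippocampal markers 1 above and 1 below of 6 and endothelial markers 1 below of 5. No myelin marker passed by edgeR (4 of 8 unadjusted, median -0.71) and no neuronal marker did (2 of 6 unadjusted, median 0.13). Their part in the 14 calls was not tested.

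**Figure D5:**
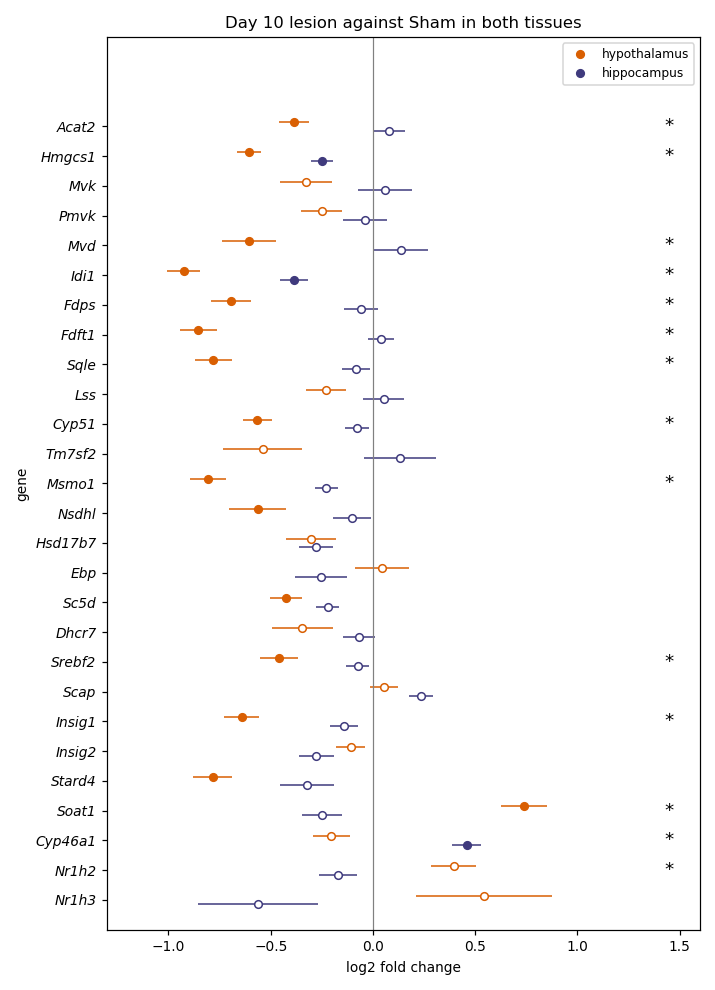
Log2 fold change of lesion against Sham at day 10 (x axis) for 27 genes (rows, Ch25h left out) in hypothalamus (orange) and hippocampus (purple). Bars are standard errors, filled circles mark an edgeR adjusted p under 0.05, and asterisks mark the 14 genes whose effect differed between the tissues. Hippocampal points lie near 0 for most enzymes, where the hypothalamic points lie between -0.93 and 0.05.

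Between the lesioned tissues themselves at day 10, 15 of the 28 genes differed, 11 higher and 4 lower in hippocampus, where 60.6% of 14561 genes differed. Cyp46a1 was 2.03-fold higher in hippocampus (47.3 FPKM in its middle library against 27.5 in hypothalamus, edgeR adjusted p = 9.17e-06) and Hsd17b7 1.84-fold higher (edgeR adjusted p = 7.72e-05). Soat1 was 2.05-fold lower (edgeR adjusted p = 4.10e-05) and Ch25h 5.67-fold lower, with 4, 3 and 3 counts against 26, 29 and 12. All 6 neuronal markers were higher in hippocampus (1879 to 1952 FPKM in sum against 916 to 1019), while 4 of 6 microglial markers were lower and 1 higher (89.0 to 111 against 160 to 196 FPKM) and 5 of 6 astrocyte markers were lower (297 to 325 against 545 to 561 FPKM). Of 5 endothelial markers, 3 were lower. The part of these in the differences was not tested. The scale matters here. In FPKM, 7 of the 28 genes were higher and 11 lower without overlap, against 19.1% and 49.6% of all genes, whereas the scaled counts split all genes into 29.7% higher and 30.9% lower.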

How the data were processed

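RNA from mouse hypothalamus and hippocampus (24 libraries, 8 groups of 3) was analysed from a single deposited table. The authors aligned reads with Hisat2 and counted them per gene with featureCounts (build GRCm38 by the submitters' processing notes), and deposited estimated counts per gene, of which 8.22% are not whole, beside FPKM values, for which the gene lengths used are not given in the sources used here. Totals ran from 15095267 to 17973494 counts, and intervals from such counts would cover counting error only. Gene symbols were taken by Ensembl ID (22219 of 22274 matched), and genomic positions from the files' build.

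Counts were rounded and tested with edgeR 4.0.16 (TMM scaling, filterByExpr with a minimum count of 10, quasi-likelihood test) in R 4.3.3, on the libraries of the groups compared, with Benjamini-Hochberg adjustment over all genes tested and a threshold of 0.05. FPKM served for levels only. The scripts were tested on simulated data. Groups came from sample titles. The libraries SHAM replicate 1 and HIP-SHAM replicate 1, whose markers go against their tissue labels and titles, were left out of the main fits. Alternatives were DESeq2 1.42.0 (test and size factors), other filters, the replicate number as a block, a fit over all groups, all labelled libraries, and leaving out each library. With TMM and with DESeq2 size factors, the median log2 fold change of all genes stayed within 0.1 of 0. FPKM was not part of this check.

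The 28 genes, the other lists and the tests were chosen with earlier results of these data known. By the naming rule, at most 10 of the 28 genes per comparison were to be described in full, by smallest p among those past the threshold, or the 3 of smallest p where none passed, and at most 3 genes of each list around the pathway. Further genes past the threshold at day 3 and day 10 without GH, 4 hippocampal markers, and genes that did not pass were described beyond that rule, to account for every gene, and were chosen after their values were seen. One further list of sterol genes is not reported here. Sequences came from RefSeq windows on GRCm38.p6.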

Additional observations from a re-analysis of the deposited data

Results flagged for a closer look

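The day 10 lesion effect differed between hippocampus and hypothalamus for 14 of the 28 sterol genes, by the interaction term of the edgeR fit. Of 15053 genes tested, 10.7% passed, 4.22% above 0 and 6.52% below. When all labelled libraries were used, only Soat1 and Cyp46a1 of the 28 passed, beside 0.63% of all genes. As log2 differences, hippocampus minus hypothalamus, the enzymes gave 0.92 for Fdft1, 0.77 for Mvd, 0.73 for Sqle, 0.66 for Fdps, 0.61 for Msmo1, 0.57 for Idi1, 0.52 for Cyp51, 0.49 for Acat2 and 0.38 for Hmgcs1. Insig1 gave 0.53 and Srebf2 gave 0.41. Cyp46a1 gave 0.69, while Soat1 and Nr1h2 gave -0.96 and -0.54. The hippocampal Sham libraries held 4318 and 5410 FPKM of choroid plexus markers and the lesioned ones 38.5 to 795, and 4 of 6 microglial markers had an interaction below 0. The part of either in these differences was not tested. Groups of 3 libraries were too small for a test of single outlying libraries.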

How the results depend on the processing

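Over the 124 calls of single genes and 1553 values under other settings, 1351 stayed on their side of the threshold, 202 no longer passed and none changed direction, and 139 of those lost came from leaving out a library and 42 from adding the 2 Sham libraries that were left out. Adding these 2 took the count of genes past the threshold from 18 to 3 at day 3, from 15 to 3 at day 10, from 3 to 0 in hippocampus and from 14 to 2 for the tissue difference. Over all genes the share fell too, from 40.5% to 11.4%, 9.4% to 1.84%, 6.15% to 0% and 10.7% to 0.63%. DESeq2 and the fit without a filter each gave 1 gene (Hmgcs1) for GH in Sham, where edgeR gave 0, and DESeq2 gave 1 for the day 3 difference with GH. Leaving out 1 library at a time gave 8 to 19 genes at day 3, 7 to 17 at day 10, 5 to 11 between the days, 0 to 1 for GH at day 3 after lesion, 0 to 5 in hippocampus, 0 to 8 for the day 3 difference with GH and 9 to 15 for the tissue difference. The number of all genes past the threshold moved with the library left out as well. The cause of these shifts was not tested.

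Replicate numbers are shared by all groups, and the check was run among the 6 groups with 3 libraries each, where no pair of groups had all same-numbered libraries correlated above 0.1. SHAM and HIP-SHAM, with 2 libraries kept, were not checked. The numbers were not taken to pair the samples. With the replicate block, 17 genes passed at day 3 (18 without), 17 at day 10 (15 without), 4 in hippocampus (3 without) and 15 for the tissue difference (14 without). Over all genes the block gave 5470, 1629, 1486 and 1732 calls, against 6035, 1392, 873 and 1616 without it. The fit over all groups was not run for the hippocampal lesion comparison, since its 2 groups are the whole tissue. Depth limits Ch25h in hippocampus, with 0 to 5 counts, and 2 Sham libraries limit the comparisons without GH.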
